A study of Eucalyptus globulus and Eucalyptus grandis with 36 samples.

Results

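Stem RNA of Eucalyptus globulus grown hot in elevated CO2 was compared with stem RNA of the same species at the control temperature in ambient CO2. The comparison covers every gene of the authors' deposited table for this pair of groups, 5445 genes out of 11827 that appear in any of the 8 tables deposited. The series holds 36 samples of stem in 12 groups of 3, from E. globulus and Eucalyptus grandis, 2 eucalypts planted for pulp and wood. The heated plants were grown at 30 °C by the sample titles and in chambers of 33 to 35 °C by the protocols, in 700 ppm CO2. The controls were grown at 20 °C by the titles and in chambers of 22 to 24 °C by the protocols, with CO2 stated as 390 ppm by the protocols but as 400 ppm by the design text. All plants came from clonal seed, were about 25 cm tall at the start and spent 35 days in the chambers under a 10 h day and a photon flux of 280 µmol per square metre per second. The protocols describe seedlings 6 months old, while the design text puts the plants' age at 35 days. The labels do not say whether a sample was 1 plant or a pool, nor how many chambers a treatment had, so chamber and treatment cannot be told apart. The labels give no hour of harvest. Temperature and CO2 both differ between the groups, so their effects cannot be told apart in this comparison alone.

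Heat unfolds proteins, and plants answer through heat shock factors, which switch on chaperones: small heat shock proteins hold unfolded chains, HSP70 with its DnaJ partners refolds them, and HSP100 proteins pull them out of aggregates. CO2 is the substrate of rubisco, the carbon-fixing enzyme, whose activase is known to be sensitive to heat. A young eucalypt stem holds green cortex, phloem, cambium and xylem, the tissue whose lignified walls become wood.

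Each value below is the authors' normalised value for a whole group on a log2 scale, with 0 as its lowest level. The tables hold no value per sample, so no standard deviation, n or interval can be given, and the depth is unknown. A gene stands in the table only if it passed the authors' moderated test at a corrected p of 0.05 with a fold of at least 2. Here "rose" and "fell" mean that a gene passed this test, and a log2 difference is the value at 30 °C with elevated CO2 minus the control value.

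Most selected genes rose. Of the 5445 genes, 3534 (64.9%) were higher and 1911 (35.1%) lower at 30 °C with elevated CO2 than in the control, and these shares are the background for every gene group below. Large changes were more one-sided: 1615 genes (29.7%) were at least 4-fold higher and 423 (7.77%) at least 4-fold lower. These counts, and the 4-fold counts of gene groups below, keep genes with a group at 0 at their deposited value, and without such genes 1424 were at least 4-fold higher and 399 at least 4-fold lower. Changes of 64-fold or more were seen for 25 higher and 4 lower genes among those with neither group at 0. The median log2 difference was 1.29 over the 5155 genes with neither group at 0. The smallest difference in the table was 1.0000, at the authors' threshold, and genes below it were not analysed here. A value of 0 was listed for 255 genes in the control and for 35 genes at 30 °C with elevated CO2, and no fold of a single gene is given for these.

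Carbon fixation and heat shock genes were among the 10 highest described genes. Eucgr.B03013, described as a rubisco small chain, stood at 13.52 at 30 °C with elevated CO2 and at 4.58 in the control, a 492-fold rise. Eucgr.E00470, a cytochrome P450, rose 349-fold to 9.66, against 1.22. Eucgr.F02898, a small heat shock protein of the HSP20 type, rose 322-fold to 12.97, against 4.63 in the control. Eucgr.D02334, described as BCL-2-associated athanogene 6, a calmodulin-binding co-chaperone in Arabidopsis, rose 219-fold to 12.34, against 4.56. Eucgr.B02310, a rubisco activase, rose 117-fold to 12.60, against 5.73. At the lower end, Eucgr.E03993, described as RbcX, a chaperone that assembles rubisco, fell 152-fold to 2.24, against 9.50 in the control. Eucgr.G01934, described as CCR-like, fell 134-fold to 6.70, against 13.77. Among the 10 lowest described genes were also Eucgr.G02581, a DnaJ protein that fell 53.2-fold, and Eucgr.J01950, described as maternal effect embryo arrest 59, which fell 40.4-fold.

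**Figure D1:**
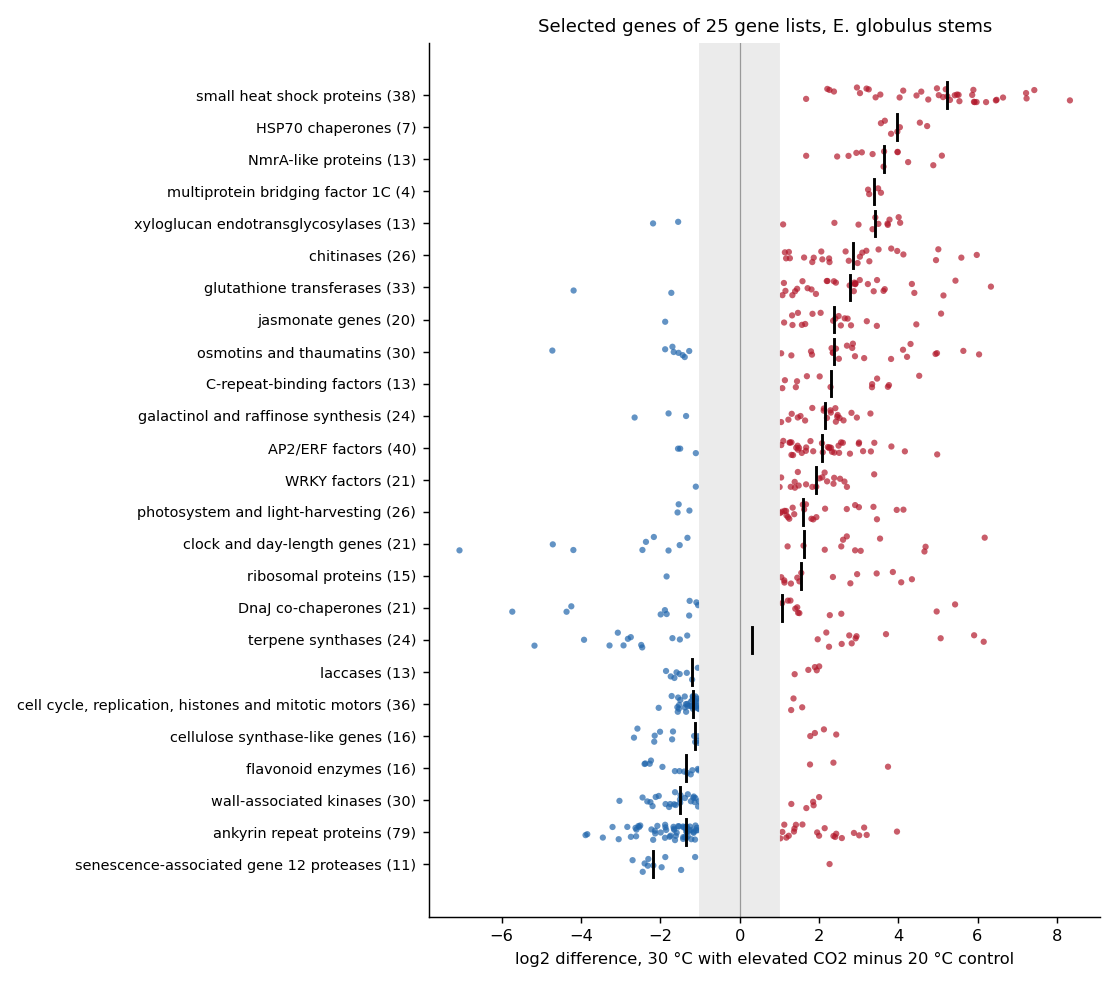
Log2 difference of each selected gene (30 °C with elevated CO2 minus the 20 °C control, x axis) in 25 gene lists (y axis, number of genes with neither group at 0 in brackets). Red points are higher, blue points lower, black bars list medians, and the grey band holds differences below the authors' 2-fold threshold. Small heat shock proteins lie to the right with a median of 5.22, and proteases described as senescence-associated gene 12 to the left with a median of -2.18.

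Small heat shock proteins mostly rose. All 40 genes that the files describe as HSP20-like, as class II or by the names of known small heat shock proteins were higher, out of 49 such genes in any deposited table, and 39 were at least 4-fold higher. Their median log2 difference was 5.22, a 37.2-fold change, beside 1.29 for all genes. Eucgr.C03071, a class II protein of the cytosol, stood at 9.45 at 30 °C with elevated CO2 and at 2.01 in the control. Eucgr.H04692, described as heat shock protein 21, the chloroplast form, stood at 11.66 against 4.43 in the control, a 150-fold rise. The smallest difference in the group was 1.68. A gene outside the group, Eucgr.A01949, described as alpha-crystallin domain 32.1 after the domain that small heat shock proteins share and named after its values were seen, fell 5.83-fold to 8.27, against 10.81. The genes numbered Eucgr.J01957 to Eucgr.J01985 include 18 of the 40, whose end positions span 173 kb with at most 100 kb between neighbours. Their differences ran from 2.38 to 7.24 where the control was above 0. Such neighbours can be near copies, and how the authors counted reads shared by such copies is not known here, so a single member's value is uncertain.

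Among the larger chaperones, HSP70 and HSP90 genes mostly rose, while HSP100 and Clp genes split into 3 higher and 3 lower. All 7 HSP70 genes rose at least 4-fold, with a median log2 difference of 3.98. Eucgr.F03980, described as heat shock protein 70B, stood at 14.83 against 10.10 in the control, and Eucgr.G00235, a chloroplast HSP70, at 12.09 against 7.54. Of 6 HSP90 genes, 5 rose and 1 fell, and 2 rose at least 4-fold. Their median log2 difference was 1.25, beside 1.29 for all genes. Eucgr.A02734, an HSP90 gene, rose 39.1-fold to 16.53, against 11.24, while Eucgr.H03726, with the same description, fell 2.08-fold. Eucgr.K02521, the HSP101 disaggregase, rose 13.0-fold to 13.35, against 9.64. The organelle forms ClpB3 (Eucgr.I01982) and ClpB4 (Eucgr.C02666) rose 2.87-fold and 2.99-fold, and 3 other Clp genes fell, among them CLPX (Eucgr.K00383, 3.09-fold). The protein folding term of the gene ontology held 16 higher and 5 lower genes, and its overlap with the lists above was not counted.

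The co-chaperones split. Among 23 DnaJ genes 13 (56.5%) rose and 10 fell, beside 64.9% higher of all genes, and both directions held large changes. Eucgr.H00599 rose 43.2-fold to 9.47, against 4.04 in the control, and Eucgr.D00597 rose 31.3-fold to 11.64, against 6.67. Eucgr.G02581 fell to 6.39, against 12.12, and Eucgr.J02231 fell 20.6-fold to 6.67, against 11.03. Of 7 chaperonins and prefoldins 5 rose and 2 fell. Genes described as TCP-1/cpn60 family members stood at both ends: Eucgr.F01711 rose 13.2-fold and Eucgr.G02400 fell 28.6-fold. Fes1A (Eucgr.A01287), a partner of HSP70 in Arabidopsis, rose 3.58-fold.

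Of the 10 selected heat shock factors, out of 26 that any table lists, 8 rose and 2 fell. HSFA2, an amplifier of the heat response in Arabidopsis, was the description of 4 genes, all higher. The one with the largest difference, Eucgr.C03452, stood at 10.22 at 30 °C with elevated CO2 and at 5.96 in the control, a 19.2-fold rise. The factors that fell were described as A6B (Eucgr.H03412, 2.20-fold) and C1 (Eucgr.C01043, 2.69-fold). All 4 genes for multiprotein bridging factor 1C, a coactivator needed for heat tolerance in Arabidopsis, rose between 9.45-fold and 11.8-fold. In the endoplasmic reticulum folding list 3 genes rose, each by a log2 difference of at most 1.59.

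Of 11 ascorbate, catalase and superoxide genes, which handle oxidants, 7 rose and 4 fell. Ascorbate peroxidase 2 (Eucgr.A01180), a cytosolic enzyme that removes hydrogen peroxide and a known heat target, rose 52.6-fold to 14.14, against 8.42 in the control. Catalase 2, which also removes hydrogen peroxide, was the description of genes in both directions. Eucgr.F03557 rose 7.38-fold, while Eucgr.F01776 and Eucgr.F01775 fell 2.17-fold and 2.47-fold. Of 34 glutathione transferases, enzymes that couple glutathione to reactive compounds, 32 rose and 22 were at least 4-fold higher. Of the 34, 29 lie within 100 kb of another, so the caution on near copies applies here too. Eucgr.H02578, a tau-class member, rose 80.9-fold to 9.42, against 3.08, and Eucgr.K03039 fell 18.2-fold to 1.19, against 5.37.

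Light-harvesting genes were mostly higher in these stems. Of 26 photosystem and light-harvesting genes 23 rose and 3 fell, with a median log2 difference of 1.61. Eucgr.B01895, a chlorophyll A-B binding protein, stood at 13.85 against 9.72 in the control, and photosystem II subunit R (Eucgr.F01447) at 13.18 against 9.72. The lower ones were 2 PsbP-like genes and 1 PsbQ-like gene, whose products aid photosystem assembly or electron flow around it. The light-harvesting term of the gene ontology held 13 higher genes and none lower, and its overlap with the list above was not counted. The broader photosynthesis term held 5 higher and 3 lower, a share of 62.5% beside 64.9% of all genes. In the rubisco and Calvin cycle list 9 of 10 rose, among them all 3 rubisco activases. The list also held fructose-bisphosphate aldolase 1 (Eucgr.I01326), which rose 5.56-fold to 14.77, against 12.30. RbcX genes differed among themselves: 2 rose and Eucgr.E03993 fell, as given above.

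Clock and day-length genes held some of the widest swings in both directions. Of 21 selected, 12 rose and 9 fell, but 16 changed at least 4-fold, 10 higher and 6 lower. CONSTANS-like 2 (Eucgr.I02094), of the family that reads day length, rose 72.6-fold to 11.63, against 5.45 in the control. B-box 32 (Eucgr.F04023), a light-signalling protein in Arabidopsis, rose 25.8-fold to 10.35, against 5.66. Cycling DOF factor 2 (Eucgr.I01947), a repressor of CONSTANS in Arabidopsis, rose 11.6-fold to 11.66, against 8.12. FKF1 (Eucgr.G02098), the blue-light F-box protein that removes cycling DOF factors in Arabidopsis, fell 18.3-fold to 8.20, against 12.39. Cold regulated gene 27 (Eucgr.F00223), which represses evening clock genes in Arabidopsis, fell 26.2-fold to 6.07, against 10.78. Further clock members, named after their values had been seen, were pseudo-response regulator 5 (Eucgr.A01405), which fell to 10.27, against 12.63, and GIGANTEA (Eucgr.F02686), which fell to 11.62, against 13.13. The first is a repressor of morning clock genes and the second a partner of FKF1 in Arabidopsis, where the transcripts of such genes cycle over the day. A single harvest sees 1 point of that cycle, and whether the plants of both groups were cut at the same hour was not tested.

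**Figure D2:**
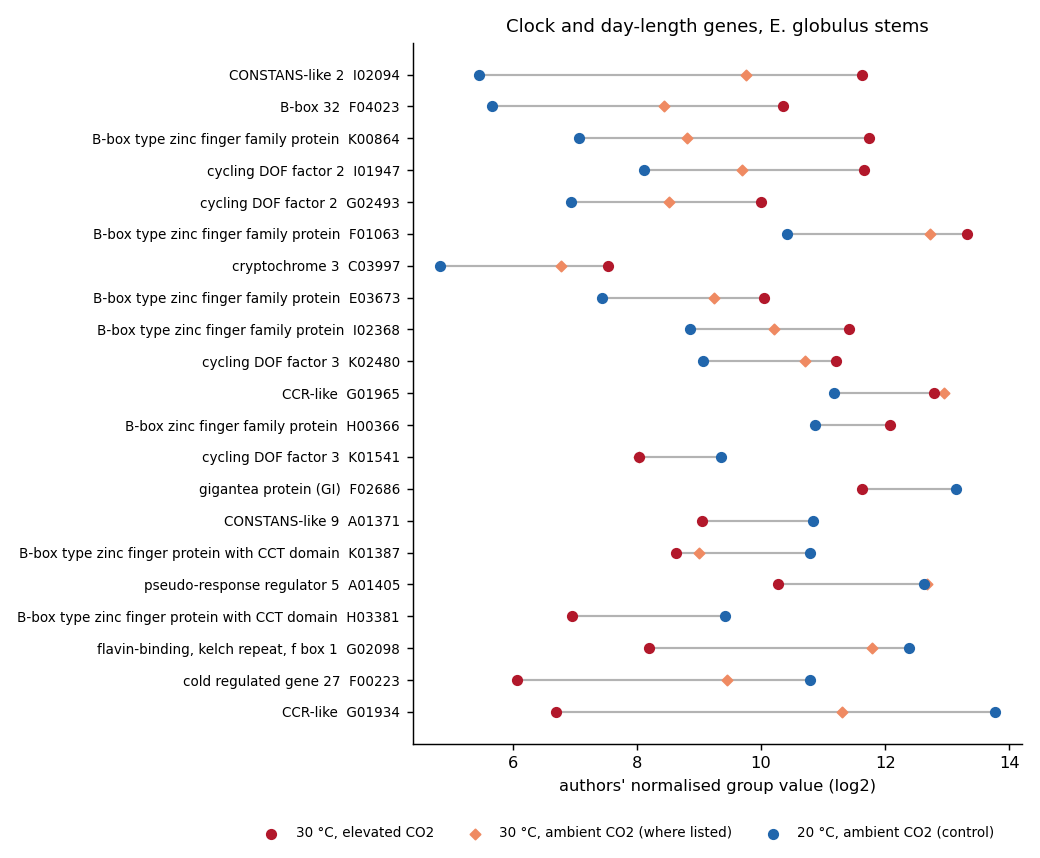
Authors' normalised log2 value (x axis) of the 21 clock and day-length genes (y axis, description and gene number without the Eucgr prefix, ordered by log2 difference). Red marks 30 °C with elevated CO2, orange diamonds 30 °C in ambient CO2 where a table lists the gene, and blue the 20 °C control; the widest gap among those that fell is that of CCR-like Eucgr.G01934, at 6.70 against 13.77.

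Both selected genes of thiamine synthesis fell: thiaminC (Eucgr.B02273), which makes the pyrimidine ring of the vitamin, stood at 8.13 against 12.72 in the control, and THI4 (Eucgr.F03433), which makes the thiazole ring, at 11.01 against 15.08. Thiamine synthesis genes are clock-driven in Arabidopsis. The sucrose, starch and trehalose list held 14 higher and 9 lower genes. Among the lower were alpha-glucan phosphorylase 2 (Eucgr.B02278), a starch-breaking enzyme, 9.27-fold lower, and a glycosyl transferase of family 35 (Eucgr.B03166), 14.2-fold lower. Its largest rise was that of a family 32 glycosyl hydrolase, the invertase family (Eucgr.D02029), 51.3-fold to 11.18, against 5.50.

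Among genes named for cold and drought, C-repeat-binding factors and galactinol and raffinose genes were mostly higher. Dehydrins with related proteins, and aquaporins, lay near the share of all genes. All 13 C-repeat-binding factors, the switches of the cold response, were higher, with a median log2 difference of 2.29. Eucgr.A02826 stood at 8.38 at 30 °C with elevated CO2 and at 3.85 in the control, a 23.1-fold rise. Of the 13, 12 lie within 116 kb of each other, so the caution on near copies applies here too. Of 24 galactinol and raffinose genes, which make protective sugars, 21 rose, led by galactinol synthase 1 (Eucgr.H00906) at 12.71 against 9.41. Dehydrin xero 1 (Eucgr.I02392) rose 54.5-fold to 11.00, against 5.23. The list of dehydrins, late embryogenesis and cold-regulated proteins held 7 higher and 4 lower genes, 63.6% higher beside 64.9% of all genes. Its largest fall was that of cold regulated gene 27 (Eucgr.F00223), given above among the clock genes. Of 10 aquaporins, the water channels, 7 rose (70%) and 3 fell, with plasma membrane intrinsic protein 2A (Eucgr.A01153) at 10.98 against 8.63.

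Genes that remodel or build the wall went in both directions. Of 13 xyloglucan endotransglycosylases, which cut and rejoin the hemicellulose that tethers cellulose, 11 rose, with a median log2 difference of 3.42. These include a block of 9 within 65.0 kb, all higher, such as Eucgr.C00179 at 11.27 against 7.22 in the control. Of 16 cellulose synthase-like genes 12 fell, among them Eucgr.L01391, a CSLE1 gene, 6.34-fold to 3.70, against 6.36. Pectin-modifying proteins split into 15 higher and 14 lower, and the pectin lyase-like Eucgr.G02884 fell 12.9-fold. Only 3 expansins, the wall-loosening proteins, were selected, and expansin A1 (Eucgr.B03214) fell 3.19-fold to 9.48, against 11.15.

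Lignin genes moved in both directions. Of 14 enzymes of the phenylpropanoid and monolignol route 12 rose, out of 36 in any table. Cinnamyl alcohol dehydrogenase 9 (Eucgr.G02223) rose to 6.13, against 2.32, and cinnamate-4-hydroxylase (Eucgr.C00065) rose 4.85-fold to 8.11, against 5.84. The members that fell did so by little more than the threshold: a phenylalanine ammonia-lyase 2 gene (Eucgr.J00907), the entry enzyme, stood at 12.44 against 13.45, and 4-coumarate:CoA ligase 3 (Eucgr.K00087) at 10.74 against 11.75. Of 14 laccases, which polymerise lignin, 6 rose and 8 fell, while 2 were at least 4-fold higher and none at least 4-fold lower. Both laccase 17 genes fell, Eucgr.B02438 3.13-fold and Eucgr.B02428 3.62-fold. Class III peroxidases held 10 higher and 6 lower genes, but 37.5% were higher among those left when genes with low mean levels were taken out. Among regulators of secondary walls, the 4 genes described as NAC domain containing protein 73, which activates wall genes in Arabidopsis, were higher, with Eucgr.D00592 at 6.75 against 3.58. MYB61 (Eucgr.B02197) and MYB42 (Eucgr.K00153) fell 2.33-fold and 2.24-fold.

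Flavonoid enzymes mostly fell. Of 16 selected, 13 were lower at 30 °C with elevated CO2 and 3 higher, with a median log2 difference of -1.36. Chalcone and stilbene synthases, which start the flavonoid or stilbene skeleton, include Eucgr.L02670 at 4.71 against 7.11 in the control and, on the other side, Eucgr.H00087 at 8.30 against 4.56. MYB111 (Eucgr.F03176), an activator of flavonol genes in Arabidopsis, fell 7.56-fold to 2.45, against 5.37, while flavonol synthase 1 (Eucgr.L00738) rose 5.16-fold. Terpene synthases, which make the volatile terpenes eucalypts are known for, divided into 12 higher and 13 lower genes, 11 and 9 of them by at least 4-fold. Neighbouring gene numbers moved apart: Eucgr.F03413 rose 71.3-fold to 8.34, against 2.18, and Eucgr.F03412, with the same description, fell 36.1-fold to 0.42. The caution on near copies applies to both, and 0.42 is close to the lowest level of 0, so these folds are uncertain.

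Several defence and hormone lists held mostly higher genes, while others lay near the 64.9% of all genes: 71.4% of 35 auxin genes and 66.7% of 12 gibberellin genes were higher. All 28 chitinases, which break fungal walls, were higher, with a median log2 difference of 2.86, led by the basic chitinase Eucgr.I02246 at 8.86 against 2.88 in the control. Of 31 osmotins and thaumatins 23 rose (74.2%) and 8 fell, and the osmotin Eucgr.L02566 rose 65.8-fold. Of the 31, 24 lie within 100 kb of another, among them a block of 10 within 122 kb, all higher. Of the 28 chitinases 19 lie within 100 kb of another, so the caution on near copies applies to both lists. Of 12 genes of pathogenesis-related classes 1 and 4, 11 rose. All 16 NmrA-like genes rose, with a median of 3.63, and 22 jasmonate genes split into 21 higher and 1 lower. The allene oxide synthase Eucgr.G00507, which commits lipids to jasmonate, stood at 5.64 against 1.18. The lower gene was lipoxygenase 1 (Eucgr.H04496), which fell 3.67-fold. It is in the list by its description only, and its part in jasmonate synthesis was not tested. Of 12 ethylene synthesis genes 10 rose, and ACC oxidase 1 (Eucgr.C03886) stood at 7.89 against 4.10. Abscisic acid genes held 12 higher and 2 lower genes, and the lower ones include NCED3 (Eucgr.F01409), the rate-limiting enzyme of abscisic acid synthesis, at 8.32 against 10.14.

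Receptor families went different ways. Receptor-like proteins of the disease resistance LRR family held 47 higher and 3 lower genes, and cysteine-rich receptor kinases 39 higher and 2 lower. All 19 genes described as receptor-like protein kinase 1 rose, with a median of 2.39. Wall-associated kinases, which sense pectin, held 6 higher and 25 lower genes, with a median of -1.49. Leucine-rich repeat receptor kinases held 33 higher and 55 lower genes, and ankyrin repeat proteins 22 higher and 58 lower. TIR and NB-ARC immune receptors held 27 higher and 41 lower genes, but at 4-fold the counts were 7 higher and 5 lower. These families are large and rich in near copies, so their members are described by counts.

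**Figure D3:**
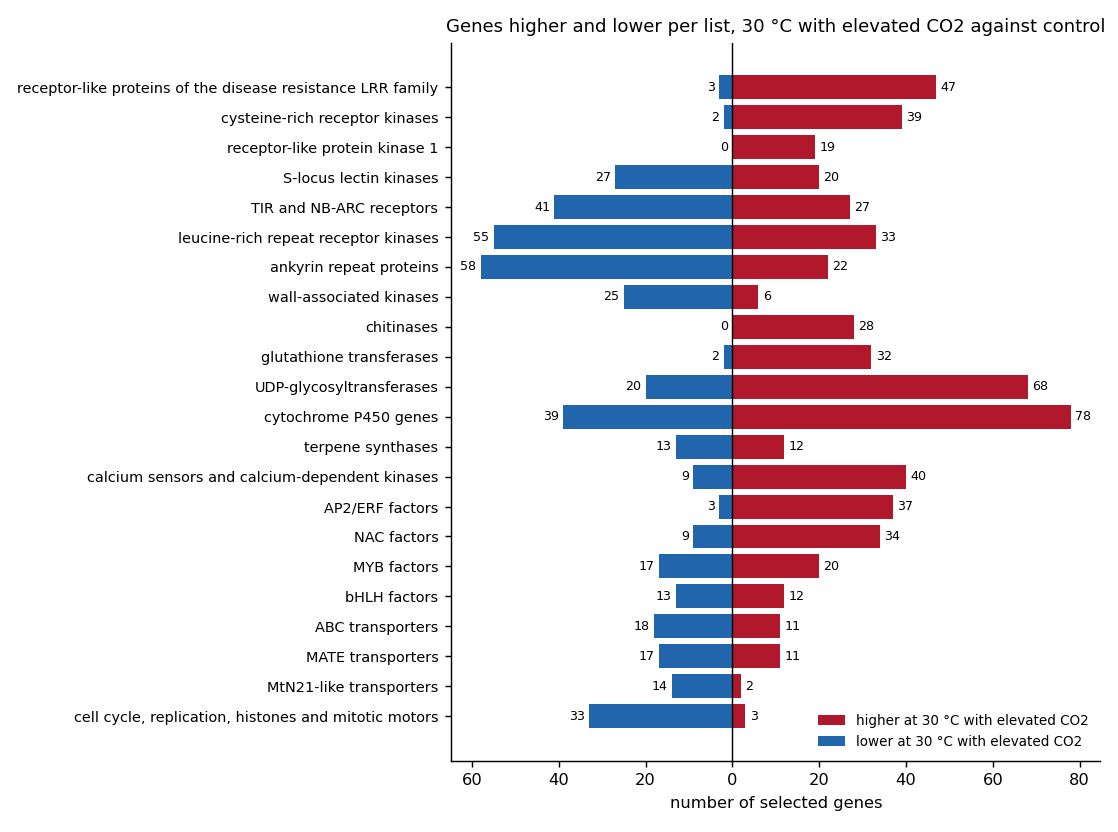
Number of selected genes (x axis, lower to the left of 0 and higher to the right) in 22 lists of receptors, defence proteins, enzymes, factors and transporters (y axis) at 30 °C with elevated CO2 against the 20 °C control. Chitinases have 28 higher and 0 lower genes, and cell cycle genes 3 higher and 33 lower.

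Counts of higher and lower genes are given for 5 transcription factor families, with no test between them. AP2/ERF factors held 37 higher and 3 lower genes, WRKY factors 20 higher and 1 lower, and NAC factors 34 higher and 9 lower. MYB factors held 20 higher and 17 lower genes, and 6 higher and 1 lower at 4-fold. The bHLH factors held 12 higher and 13 lower genes. WRKY40 (Eucgr.C02659), a regulator of defence in Arabidopsis, rose 10.5-fold to 6.28, against 2.89, and MYB2 (Eucgr.K03562), an activator of drought genes in Arabidopsis, rose to 7.98, against 3.17. Calcium sensors and calcium-dependent kinases held 40 higher and 9 lower genes. The gene ontology term for calcium ion binding is a different set, with 6 higher and 20 lower genes and a median log2 difference of -1.33. Its lowest difference, -3.03, is also the lowest of the wall-associated kinases above. The term's overlap with those kinases was not counted, so it is no second count of the calcium sensors.

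Cell division genes fell together by small steps. Of 36 genes for the cell cycle, replication, histones and mitotic motors 33 fell and 3 rose, with a median log2 difference of -1.19, and 1 fell at least 4-fold. That gene was a histone (Eucgr.J02062), at 8.75 against 10.79 in the control. The same list also takes in tubulin alpha-5 (Eucgr.A02108), named after its values were seen, at 11.30 against 12.44. The catalytic subunit of DNA polymerase epsilon (Eucgr.B03882), which copies the leading strand, stood at 6.27 against 7.99. The gene ontology terms for microtubule-based movement, DNA replication and the nucleosome held 10, 8 and 8 lower genes and no higher ones. Their overlap with the list above was not counted, so they are no second count of the fall. Of 17 ribosomal proteins selected, out of 51 in any table, 16 were higher, with 2 at 0 in the control. Among the ribosomal proteins left without genes of low mean level 88.9% were higher. Among cell type markers, 2 of the 6 xylem markers in any table were selected, both laccase 17, and fell. Phloem markers held 4 higher and 4 lower genes. Epidermis and cork markers held 10 higher and 5 lower genes, with 4 at 0 in the control, and 37.5% were higher among those left without genes of low mean level. The part of these cell types in the results above was not tested. No description in any deposited table matched the pattern for cambium markers. Such genes may stand there under other descriptions or none, and the tables list only selected genes. The missing match therefore says nothing about the level of those markers. In bulk stem RNA, fewer dividing cells and less of these transcripts per cell cannot be told apart.

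The same genes could be followed at 30 °C in ambient CO2 where the authors' table of 3 temperatures lists them. That table shares the control samples with this comparison and was selected by a test over 3 temperatures, so values are given side by side, with no test of the gap. It lists 3486 of the 5445 genes. The 2277 of them that rose had a median log2 difference from the control of 2.01 at 30 °C with elevated CO2 and 1.70 at 30 °C in ambient CO2. For the 1209 that fell the medians were -1.53 with elevated CO2 and -1.30 in ambient CO2. The genes were chosen on the elevated CO2 value, so the wider medians there are a description, and genes at 0 were kept in them. Among the 3352 of these genes above 0 in all 3 groups, 541 were at least 2-fold higher and 288 at least 2-fold lower with elevated than with ambient CO2 at 30 °C.

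**Figure D4:**
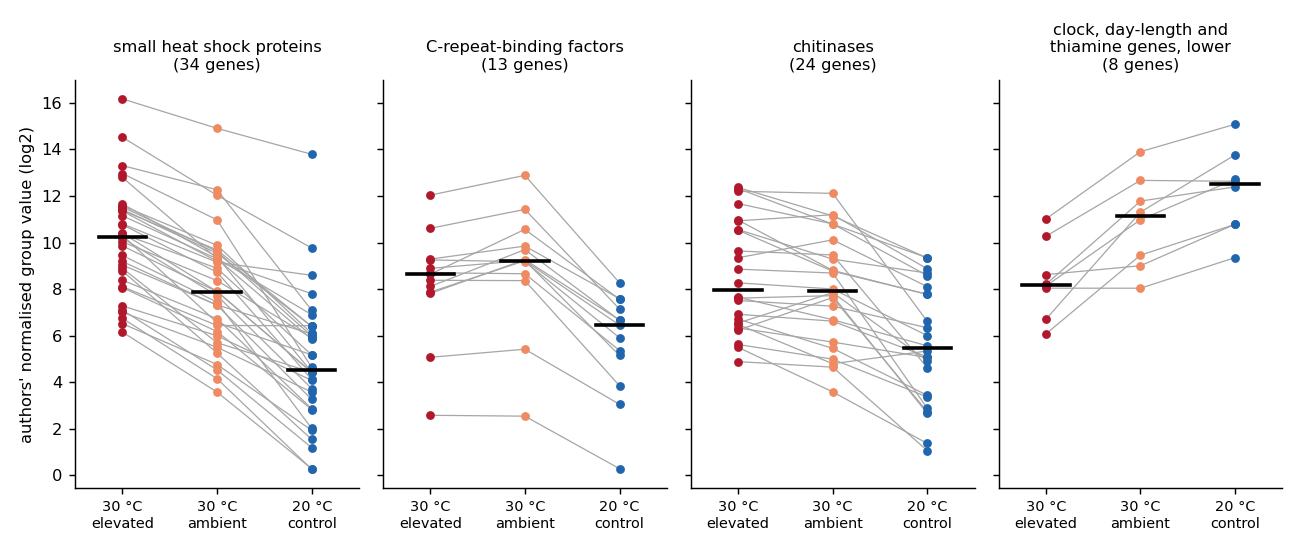
Authors' normalised log2 value (y axis) of each gene at 30 °C with elevated CO2, at 30 °C in ambient CO2 and in the 20 °C control (x axis), for 4 gene sets listed in both tables with no control value of 0; lines join a gene and black bars are medians. All 34 small heat shock proteins of the group lie higher with elevated than with ambient CO2 at 30 °C, while the C-repeat-binding factors have their higher median in ambient CO2.

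The small heat shock proteins of the group above were higher with elevated than with ambient CO2 at 30 °C. For the 34 with a value above 0 in each group, the median difference from the control was 5.37 at 30 °C with elevated CO2 and 3.35 at 30 °C in ambient CO2, and all 34 were at least 2-fold higher with elevated than with ambient CO2. The gap was widest for Eucgr.F04109, named after its values were seen, at 10.31 with elevated CO2 and 6.56 in ambient CO2 at 30 °C, against 5.18 in the control. Bridging factor 1C genes had medians of 3.38 with elevated CO2 and 2.29 in ambient CO2. Other sets had the higher median in ambient CO2: C-repeat-binding factors had 2.29 with elevated and 3.03 with ambient CO2, galactinol and raffinose genes 2.20 with elevated and 2.87 with ambient CO2, and ethylene synthesis genes 1.96 with elevated and 2.91 with ambient CO2. HSFA2 gene Eucgr.C03452 was likewise at 10.22 with elevated CO2 and 11.00 in ambient CO2 at 30 °C, against 5.96 in the control.

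Several of the genes that fell most were lower with elevated than with ambient CO2 at 30 °C. They were chosen on their value with elevated CO2, so a smaller fall in ambient CO2 can be built in by that choice. The gap was not tested. CCR-like Eucgr.G01934 stood at 6.70 with elevated CO2 and 11.31 in ambient CO2 at 30 °C, against 13.77 in the control. RbcX Eucgr.E03993 stood at 2.24, 6.81 and 9.50 in the same order of groups, and Eucgr.J01950 at 7.14, 11.78 and 12.47. FKF1 Eucgr.G02098 stood at 8.20 and 11.78, against 12.39 in the control. Flavonoid genes gave another order: dihydroflavonol 4-reductase (Eucgr.F01589), named after its values were seen, was at 12.00 with elevated CO2 and 10.33 in ambient CO2 at 30 °C, against 13.40 in the control, and 8 of the 14 flavonoid genes listed were at least 2-fold higher with elevated than with ambient CO2. The phenylalanine ammonia-lyase 2 gene Eucgr.J00907 showed the same order at 12.44 and 9.75, against 13.45. A few genes, named after their values were seen, lay on opposite sides of the control. Myo-inositol-1-phosphate synthase 2 (Eucgr.H04815), which supplies inositol for galactinol, was at 13.56 with elevated CO2 and 10.02 in ambient CO2 at 30 °C, against 11.15 in the control. Haemoglobin 2 (Eucgr.G02733) was at 10.14 and 6.31, against 8.16, and a pectin methylesterase inhibitor family gene (Eucgr.K00155) at 6.92 and 11.32, against 9.55.

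Elevated CO2 at the control temperature was compared by the authors with the E. globulus control and with the E. grandis control. Only genes selected in either comparison have a value there, so the medians describe a chosen, smaller part of these genes. The 682 that rose here and have one had a median difference from the shared control of 2.06 at 30 °C with elevated CO2 and 0.61 at 20 °C with elevated CO2, and the 341 that fell had medians of -1.53 at 30 °C and -0.10 at 20 °C, genes at 0 kept.

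E. grandis received the same treatment with its own control, so the species share no samples. Its table holds 984 genes, 578 of them (58.7%) higher at 30 °C with elevated CO2 than in the E. grandis control. The species had 425 selected genes in common, 7.81% of the E. globulus table and 43.2% of the E. grandis table. Of these, 220 rose in both, 172 fell in both, 28 rose in E. globulus and fell in E. grandis, and 5 did the reverse. Among genes higher in both with no group at 0, the median log2 difference was 1.82 in each species, and 108 of 205 changed more in E. globulus. Among genes lower in both the medians were -1.86 in E. globulus and -1.76 in E. grandis, and 92 of 169 changed more in E. globulus.

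The shared genes include several of the strongest falls. The files do not say whether the species were normalised together, so differences, not levels, are set side by side. CCR-like Eucgr.G01934 fell by 9.49 on the log2 scale in E. grandis, to 3.73 with heat and elevated CO2, against 13.22 in its control. Eucgr.J01950 fell by 7.53 there, RbcX Eucgr.E03993 by 6.21 and the DnaJ gene Eucgr.G02581 by 6.05. FKF1 Eucgr.G02098 stood at 7.67 against 12.66 in E. grandis, and both thiamine genes fell there, thiaminC (Eucgr.B02273) to 7.15, against 11.69, and THI4 (Eucgr.F03433) to 11.19, against 15.28. All 11 clock and day-length genes in both tables moved the same way in both species, as did 392 of the 425 shared genes (92.2%). Of the 40 small heat shock proteins 10 (25.0%) were selected in E. grandis, all higher, beside 7.81% of all genes of the E. globulus table. Alpha-crystallin gene Eucgr.A01949 fell by 3.43 on the log2 scale in E. grandis. Eucgr.C03071 stood at 9.90 against 6.14 in E. grandis, a difference of 3.76 in E. grandis beside 7.43 in E. globulus. The 5 DnaJ genes in both tables fell in both species. The genes for rubisco small chain Eucgr.B03013, rubisco activase Eucgr.B02310 and athanogene 6 Eucgr.D02334 were not selected in E. grandis. The differences between species were not tested, since neither table gives values per sample.

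**Figure D5:**
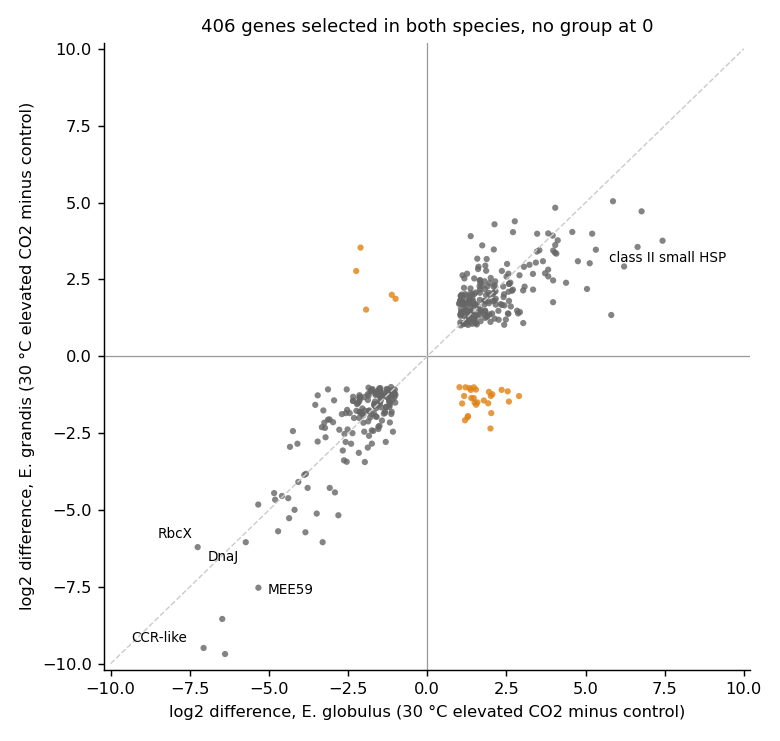
Log2 difference (30 °C with elevated CO2 minus the 20 °C control) in E. globulus (x axis) and in E. grandis (y axis) for the 406 genes selected in both species with no group at 0; the dashed line marks equal differences. Grey points (374) changed in the same direction and orange points in opposite directions, and CCR-like Eucgr.G01934 lies lower left at -7.06 in E. globulus and -9.49 in E. grandis.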

How the data were processed

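Total stem RNA was sequenced, per the labels' protocols. The submitters' processing notes name Bowtie2 and DESeq but no version. The genome build and the way reads were counted are not stated there. The deposited group values are log2 values normalised by the authors, 1 per gene and group, per the file headers. The deposited log2 fold change, and the fold as a linear ratio, matched the differences computed here within a tolerance of 0.0001. The authors selected genes by a moderated test with a corrected p cut-off of 0.05 and a fold of at least 2, per the file headers. Where 2 tables list a group for 1 gene, the values were equal (8144 compared).

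Differences, counts and medians were computed with Python 3.11.15, pandas 2.3.3 and numpy 2.4.6. A separate count on simulated differences returned the numbers of higher and lower genes put in, as its construction required. It did not cover the list patterns, the reading of the values or the handling of genes at 0. Medians leave out genes with a group at 0, unless said otherwise. Gene lists are 87 patterns on the files' descriptions, present for 83.0% of the genes. The members and lists were chosen with earlier results of these data known, and patterns were corrected after descriptions were seen. Genes were named by a rule: per list, up to 4 with the largest difference in each direction, all members of lists of 6 or fewer, and the 10 highest and 10 lowest described genes; others are said to be named after their values were seen. No test per gene or list was run. Alternatives were stricter folds, leaving out genes at 0 or low levels, and counting each description once.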

Additional observations from a re-analysis of the deposited data

How the results depend on the processing

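No result here has an error of its own, because the deposited tables give one value per group, and depth is unknown. No paired analysis was possible because the tables hold no value per replicate, and no replicate could be left out for the same reason. Matching lists on descriptions alone was not run, since the symbol column repeats the gene identifier. The count of higher genes was 3534, and 1615 at a minimum fold of 4, 653 at a minimum fold of 8 and 1090 with each description counted once. The count of lower genes was 1911, and 423, 109 and 660 under the same settings, and higher genes stayed the majority under each setting run, between 61.9% and 85.7%. The genes in common with E. grandis were 425, and 122 where both changed at least 4-fold, 120 of them in the same direction. Of 81 lists with 5 or more members, 57 held more higher than lower genes, and between 55 and 62 under the alternatives. The majority direction turned in some lists. At a minimum fold of 4 the share higher was 60% for sugar transporters, 100% for laccases, 46.7% for pectin-modifying proteins, 55% for terpene synthases, 58.3% for TIR and NB-ARC receptors and 61.5% for GDSL lipases. Without the genes of lowest mean level it was 40% for O-methyltransferases, 37.5% for class III peroxidases, 57.1% for cellulose synthases with glycosyl hydrolase 9, 52.9% for bHLH factors, 54.5% for DUF247 proteins and 37.5% for epidermis and cork markers. With each description counted once it was 66.7% for sugar transporters, 66.7% for germins and 75% for GDSL lipases. With genes at 0 kept, the median difference was 1.05 for pectin-modifying proteins, -1.32 for terpene synthases and 0.092 for wax, cutin and suberin enzymes. The cause of these turns was not tested.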
